A study of Mus musculus with 8 samples.

Results

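The integrin, laminin and collagen genes of the mouse were followed through the H3K27ac peaks of Oli-neu cells. They were taken by symbol from the protein-coding genes of the GENCODE annotation, as integrin alpha genes (Itga), integrin beta genes (Itgb), laminin alpha, beta and gamma chain genes (Lama, Lamb and Lamc) and collagen chain genes (Col), which gave 82 of 21951 protein-coding genes. The 82 members comprise 18 integrin alpha, 8 integrin beta, 11 laminin and 44 collagen genes, and 1 gene, Col4a3bp, that shares the symbol pattern but encodes a ceramide transfer protein and no collagen. Col4a3bp has no promoter peak. It adds 1 to each count over all 82 members with a gene-body peak or with a peak just downstream of the start, and 1 peak to each list, at a place shared by both.

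H3K27ac, the acetylation of lysine 27 of histone H3 that marks active promoters and enhancers, was mapped by ChIP-seq in Oli-neu, a mouse cell line that the labels describe as embryonic oligodendrocyte progenitor cells of the C57BL/6 strain. The proliferating cells were kept with T3 at 340 ng/ml, thyroxine at 400 ng/ml, bFGF at 10 ng/ml and Pdgf-BB at 1 ng/ml. Differentiating cells were held for 1 day, as the labels give it, without growth factors and with 1 µM of the erb inhibitor PD174265. The culture methods of the study give a longer time, so the duration is uncertain. Each state was 1 library of 1 cell line, so no difference between the states could be set against a replicate spread or tested. The 6 ATAC-seq libraries of the series, 3 with siCtr and 3 with siPadi2, were not analysed here.

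Integrins are receptors of an alpha and a beta chain that tie cells to the extracellular matrix and signal inward through adhesion proteins. Laminins are cross-shaped trimers of an alpha, a beta and a gamma chain in basement membranes, and collagens are triple helices that build fibrils, networks or the surfaces of fibrils. Oligodendrocyte progenitors use laminin and its integrin receptors, with Itga6 and Itgb1 as known chains, for survival, process outgrowth and myelination, whereas most fibrillar collagen of the nervous system is made by other cells.

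The proliferating list held 28924 peaks and the differentiating list 27965. Of these, 29.2% and 30.1% shared a base with a peak of the other list, so most peaks of either list stood in that list alone. Each peak carries the fold enrichment over the local background (median 3.33 for proliferating and 3.13 for differentiating cells) and a −log10 q, the significance that the peak caller adjusts for multiple tests (median 1.93 and 1.89). A −log10 q of 5 or more was reached by 4.35% and 5.73% of the peaks. Peak density differed among chromosomes, from 0.783 and 0.859 peaks per Mb on chromosome X to 27.03 and 27.01 on chromosome 15, leaving out chromosome Y, which holds no member. Of 10 oligodendrocyte lineage markers, 3 (Sox10, Olig1 and Olig2) had a promoter peak, in both lists, beside 23.7% of all protein-coding genes in the proliferating list, 27.7% in the differentiating list, 33.8% in either and 17.6% in both. This count is near the share of all genes, so the markers as a list did not set the cell type apart. Among markers of other cells, 1 of 6 of fibroblasts and mural cells (Dcn, proliferating), 0 of 5 of endothelium, 0 of 6 of microglia and leukocytes and 1 of 4 of astrocytes (Slc1a3, proliferating) had one in either list. The Slc1a3 peak had a −log10 q of 1.195, so its q was above 0.05.

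Of the 82 members, 7 had a peak in the promoter region in both states: the integrin genes Itgav, Itgb1 and Itgb8, the laminin genes Lama4 and Lamc1, and the collagen genes Col11a2 and Col16a1. The promoter region was the stretch between 3000 bp before and 100 bp after the annotated start of the gene (TSS, transcription start site). To show what these regions look like, the 250 bases upstream of the TSS of 6 of these genes, all but Lamc1, are printed 5′ to 3′ on the strand of the gene, from the GRCm38 genome (RefSeq assembly) at the GENCODE M21 start. As contrasts without a promoter peak in either list, the same stretch is printed for Col1a1, the main chain of fibrillar collagen, and the short gap between the opposed starts of the type IV collagen genes Col4a3 and Col4a4. Capitals mark the GC box GGGCGG, the CCAAT box CCAAT and the TATA box TATAAA on either strand.

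Itgav, chr2:83724147-83724396, plus strand: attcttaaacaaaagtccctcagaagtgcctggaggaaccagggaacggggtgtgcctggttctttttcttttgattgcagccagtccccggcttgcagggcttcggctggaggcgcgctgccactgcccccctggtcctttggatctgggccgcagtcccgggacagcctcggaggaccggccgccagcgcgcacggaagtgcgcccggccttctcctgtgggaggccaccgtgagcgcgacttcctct
Itgb1, chr8:128685404-128685653, plus strand: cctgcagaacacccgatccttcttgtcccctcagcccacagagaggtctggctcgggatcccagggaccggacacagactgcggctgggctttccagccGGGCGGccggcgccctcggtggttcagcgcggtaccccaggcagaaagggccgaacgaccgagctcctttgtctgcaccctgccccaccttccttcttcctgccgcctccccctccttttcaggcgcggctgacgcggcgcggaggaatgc
Itgb8, chr12:119238803-119239052, minus strand: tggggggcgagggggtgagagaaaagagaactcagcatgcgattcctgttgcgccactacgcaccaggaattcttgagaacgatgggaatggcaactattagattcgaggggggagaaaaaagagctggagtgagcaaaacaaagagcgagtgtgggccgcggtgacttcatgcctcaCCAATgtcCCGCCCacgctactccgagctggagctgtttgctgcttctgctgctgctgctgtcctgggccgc
Lama4, chr10:38965265-38965514, plus strand: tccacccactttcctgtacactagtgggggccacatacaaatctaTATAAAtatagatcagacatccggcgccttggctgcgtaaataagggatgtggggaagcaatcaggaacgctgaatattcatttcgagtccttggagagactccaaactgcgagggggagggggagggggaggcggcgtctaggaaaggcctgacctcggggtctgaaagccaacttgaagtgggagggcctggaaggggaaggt
Col11a2, chr17:34039187-34039436, plus strand: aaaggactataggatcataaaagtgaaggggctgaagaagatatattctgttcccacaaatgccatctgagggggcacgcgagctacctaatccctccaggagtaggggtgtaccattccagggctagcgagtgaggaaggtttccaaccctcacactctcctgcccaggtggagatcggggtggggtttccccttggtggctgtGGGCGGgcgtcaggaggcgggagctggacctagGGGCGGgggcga
Col16a1, chr4:130047590-130047839, plus strand: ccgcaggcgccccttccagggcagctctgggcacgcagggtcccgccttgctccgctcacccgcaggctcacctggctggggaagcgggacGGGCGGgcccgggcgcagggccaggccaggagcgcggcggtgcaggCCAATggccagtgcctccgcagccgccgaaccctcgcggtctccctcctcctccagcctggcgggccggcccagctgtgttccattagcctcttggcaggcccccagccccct
Col1a1, chr11:94935974-94936223, plus strand: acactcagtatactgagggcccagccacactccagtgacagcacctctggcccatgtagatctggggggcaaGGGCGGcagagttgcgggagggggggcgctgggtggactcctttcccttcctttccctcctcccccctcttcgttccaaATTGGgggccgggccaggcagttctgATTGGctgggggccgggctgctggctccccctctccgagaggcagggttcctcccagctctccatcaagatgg
Col4a3 and Col4a4, chr1:82586850-82586920, plus strand: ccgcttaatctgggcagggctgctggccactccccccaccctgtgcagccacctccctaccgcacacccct

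The promoters differed in these letters. Matches were counted at any position of the stretch, so a match was not shown to be a working element. The GC box stood 2 times in the stretch of Col11a2, 1 time each in those of Itgb1, Itgb8 and Col16a1, and not at all in those of Itgav and Lama4. Lama4 was the only one of the 7 gene stretches with the letters TATAAA, and they stood toward the end of the stretch far from the TSS. The Itgb8 and Col16a1 stretches each held 1 CCAAT box, and Col1a1, with no promoter peak, held 2 together with 1 GC box. The gap between Col4a3 and Col4a4 held none of the 3 motifs. Over all 21938 protein-coding genes whose 250 bases could be read, 39.0% held the GC box, 36.0% the CCAAT box and 11.5% the TATA box. The GC box was present in 10 of the 14 members with a promoter peak in either list and in 26 of the 68 without one, beside 58.0% and 29.3% of all genes with and without a promoter peak. The median GC content of these 250 bases was 61.2% in the 14 and 56.8% in the 68 (60.0% and 50.8% for all genes), and the median ratio of observed to expected CpG was 0.587 and 0.440 (0.751 and 0.319 for all genes). The quartiles overlapped: GC content ran from 49.4% to 64.0% in the 68 members and from 43.6% to 58.4% in all genes without a promoter peak, and the CpG ratio from 0.464 to 0.687 in the 14 members and from 0.554 to 0.908 in all genes with one.

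In the proliferating list 11 members had a promoter peak (13.4%, exact 95% binomial interval 6.89 to 22.7), beside 23.7% of all protein-coding genes. In the differentiating list 10 had one (12.2%, 6.01 to 21.3), beside 27.7% of all genes. In either list 14 had one (17.1%, 9.66 to 26.98), beside 33.8%, and the 7 genes above had one in both (8.54%, 3.50 to 16.8), beside 17.6%. All 4 shares lay below those of all genes. The intervals cover counting error only and treat the genes as independent, which neighbouring genes are not. The order was the same in each class of gene length. For genes under 30 kb the member shares were 12.5% and 12.5% in the proliferating and differentiating lists (all genes 21.4% and 24.6%), from 30 to under 100 kb 18.5% and 18.5% (29.0% and 34.8%), and for genes of 100 kb or longer 10.3% and 7.69% (26.1% and 30.8%). On chromosomes 1, 10 and 15, where peaks were dense, 12.5% of 24 members had a promoter peak in each list, beside 35.3% and 40.2% of all genes there. On the other chromosomes it was 13.8% and 12.1% of 58 members, beside 21.9% and 25.7%.

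**Figure D1:**
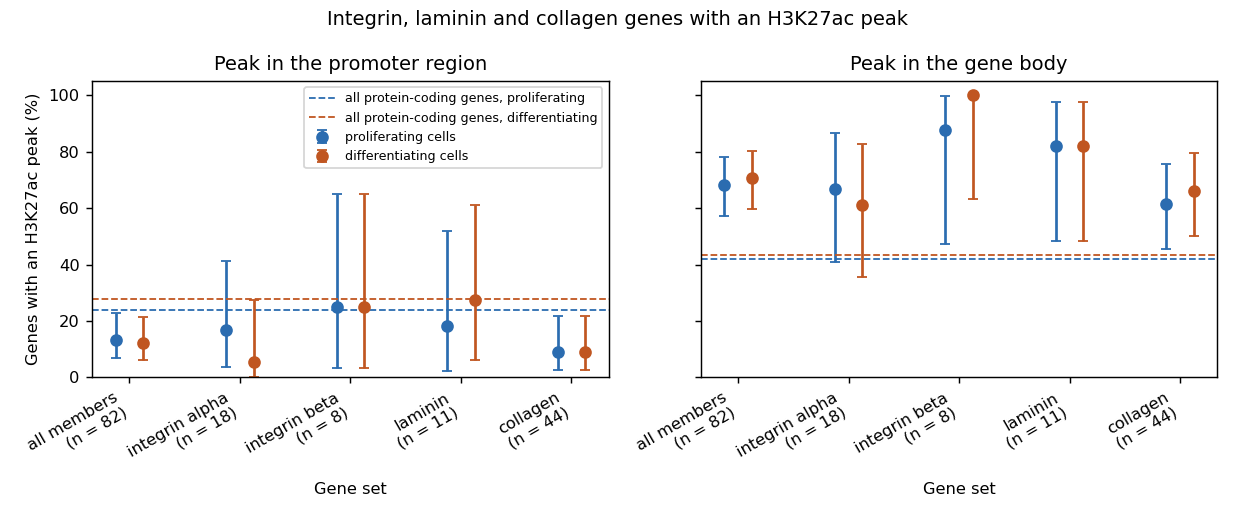
Share of genes with an H3K27ac peak (y axis, percent) in the promoter region (left) and in the gene body (right) for all 82 members and for each family, in proliferating (blue) and differentiating (orange) cells; bars are exact 95% binomial intervals and dashed lines the shares of all 21951 protein-coding genes. All members together lay below the dashed lines at promoters and above them in gene bodies.

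By family, a promoter peak in either list was found for 3 of 18 integrin alpha genes, 2 of 8 integrin beta genes, 3 of 11 laminin genes and 6 of 44 collagen genes. These shares were 16.7%, 25%, 27.3% and 13.6%, beside 33.8% of all protein-coding genes. The intervals of integrin alpha (3.58 to 41.4), integrin beta (3.19 to 65.1) and laminin (6.02 to 61.0) covered the share of all genes. That of collagen (5.17 to 27.4) lay below it. The intervals of the families overlapped one another.

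Among the receptors, the alpha chain gene Itgav, a partner of several beta chains in binding matrix proteins with an RGD motif, had its TSS covered in both states. Its promoter peak had a fold enrichment of 3.43 and a −log10 q of 2.96 in proliferating cells and of 3.50 and 3.49 in differentiating cells. The peak of Itgb1, the beta chain of most matrix-binding integrins, had a fold enrichment of 3.86 (−log10 q 2.64) in proliferating and 3.21 (1.83) in differentiating cells. That of Itgb8, which pairs with the Itgav chain and takes part in the activation of TGF-beta, had 3.77 (4.29) and 3.14 (3.15). By −log10 q these 3 genes stood, in this order, above 82.0%, 76.0% and 93.3% of proliferating peaks and 86.3%, 47.0% and 82.7% of differentiating peaks. Itgav and Itgb8, which form a known receptor pair, were both marked at the start in both states. Itgb3, Itgb5 and Itgb6, other known partners of the Itgav chain, had no promoter peak at the annotated gene start. With every transcript start counted, Itgb6 had a proliferating one.

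Promoter peaks of 2 further alpha chain genes stood in the proliferating list alone. The peak of Itga5, the fibronectin receptor chain, had a fold enrichment of 3.43 (−log10 q 1.94), lay 2180 to 1918 bp upstream of the TSS and was 263 bp wide, the smallest width in that list. That of Itga8 had 3.30 (1.89) and lay 57 to 1089 bp downstream of the TSS, so it reached the promoter region by its edge. Neither gene had a differentiating peak in the promoter region, and the nearest differentiating peaks were 20817 and 45259 bp from their starts. With every transcript start counted, Itga8 had a promoter peak in both lists.

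Itga6, which encodes the laminin receptor chain best known from oligodendrocyte progenitors, had no promoter peak in either list. Its GENCODE gene starts 41324 bp upstream of the transcript with the longest coding sequence, and that later start had no peak in its promoter region either. When the start of every transcript was counted, Itga6 had a differentiating promoter peak. Each state had 1 peak within the gene, with a fold enrichment of 3.34 at 36398 bp from the gene start in proliferating cells and of 3.16 at 92379 bp in differentiating cells, and these did not overlap. The collagen receptor chain genes Itga1, Itga2, Itga10 and Itga11 and the laminin receptor chain genes Itga3 and Itga7 had no promoter peak. With every transcript start counted, Itga7 had a differentiating one.

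The leukocyte integrin genes Itgal, Itgam, Itgax, Itgad, Itgae, Itgb2 and Itgb7 are not known from oligodendroglia. None had a promoter peak in either list, beside 33.8% of all protein-coding genes with one. With every transcript start counted, Itgax had a proliferating one. Itgal and Itgam had no peak in the gene at all. The others had 1 or 2 gene-body peaks in at least 1 list, beside 52.5% of all protein-coding genes with a gene-body peak in either list. Itgb7 had a proliferating peak from 356 bp downstream of its start with a fold enrichment of 2.96 (−log10 q 1.38). The strongest of these gene-body peaks, in intron 11 of Itgad, had a fold enrichment of 4.52 in proliferating and 3.49 in differentiating cells. Annotated repeats in the soft-masked genome made up 62.9% and 65.0% of its bases.

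Among the laminin genes, Lamc1, the gamma chain gene of most laminins, had a promoter peak with a fold enrichment of 3.71 (−log10 q 3.26) in proliferating and 3.45 (2.68) in differentiating cells. Lama4, an alpha chain gene known from vessels and peripheral nerve, had 3.17 (2.93) and 2.77 (2.63). In both genes the peaks covered the TSS and shared 1273 and 1576 bp between the states. Lama5 had a differentiating peak alone, of 2.98 (2.05), from 1986 to 1708 bp upstream and 279 bp wide, the smallest width in that list. Lamb1, the beta chain gene that would complete a trimer with Lamc1, had no promoter peak, and its single peak, of 3.91 (2.72) in proliferating cells, lay 55613 bp into the gene. Lama2, whose chain is known for supporting myelination, had no promoter peak. With every transcript start counted, Lamb1 and Lama2 each had a proliferating promoter peak.

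Among the collagen genes, Col11a2 and Col16a1 were marked in both states. The proliferating peak of the fibrillar collagen gene Col11a2 had a fold enrichment of 3.84 (−log10 q 3.07) and lay 1270 to 506 bp upstream of the TSS, and the differentiating peak had 3.56 (4.70) and covered the TSS. Both lay over the neighbouring gene Rxrb as well, so they cannot be assigned to Col11a2 alone. The peaks of Col16a1, which encodes a collagen that coats fibrils, had 3.46 (1.93) and 2.90 (1.74), and both covered the TSS.

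A further 4 collagen genes had a promoter peak in 1 list. Col20a1 had a proliferating peak of 3.02 (3.61) from 63 to 2310 bp downstream of the TSS. Its differentiating peak, of 3.203 (5.98), lay wholly within that stretch but began 324 bp downstream, outside the promoter region. The difference between the states at Col20a1 was therefore one of peak edges, with 1740 bp shared. Col23a1, a transmembrane collagen gene, had a proliferating peak of 3.62 (2.20) from 1541 to 1227 bp upstream. Col11a1 had a differentiating peak of 2.90 (1.46) that covered the TSS, and Col6a2, a type VI collagen gene, had one of 2.85 (1.57) from 2385 to 200 bp upstream. These last 3 genes and Itga5, Itga8 and Lama5 had no peak of the other state that shared a base with theirs.

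**Figure D2:**
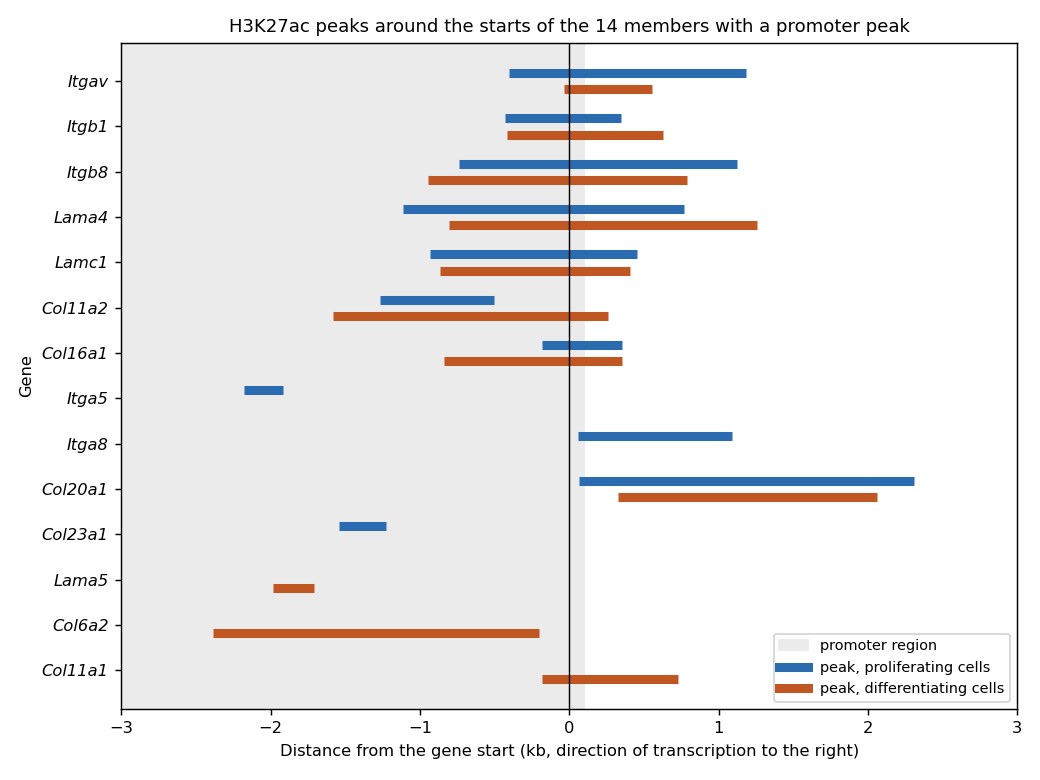
H3K27ac peaks within 3 kb of the start of each of the 14 members with a promoter peak (rows), by distance from the gene start in kb (x axis, transcription to the right), in proliferating (blue) and differentiating (orange) cells, with the promoter region in grey. The peaks of Itgav, Itgb1, Itgb8, Lama4, Lamc1 and Col16a1 crossed the start in both states, and the 2 peaks of Col20a1 overlapped downstream of it.

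A peak covered the TSS itself in 6 members in proliferating cells (7.32%) and 8 in differentiating cells (9.76%), beside 15.95% and 20.4% of all protein-coding genes. The median distance from the TSS to the nearest peak was 18.9 kb in both lists for the members, and 17.4 and 15.7 kb for all genes. The members thus differed from all genes more in peaks over the start than in the median distance to a peak.

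The 6 type IV collagen genes, whose chains form the network of basement membranes, had no promoter peak in either list. They lie in 3 pairs that start close together and are read in opposite directions. The starts of Col4a1 and Col4a2 on chromosome 8 are 21 bp apart, those of Col4a3 and Col4a4 on chromosome 1 are 72 bp apart, and those of Col4a6 and Col4a5 on chromosome X are 1309 bp apart. The nearest proliferating peak was 106847 bp from the start of Col4a1, 95632 bp from that of Col4a3 and 913729 bp from that of Col4a5, and the nearest differentiating peak was 139529, 77433 and 914814 bp away. Chromosomes X and 8 carried few peaks in general (0.783 and 4.87 per Mb in the proliferating list), whereas chromosome 1, with the pair whose gap is printed above, carried 19.2. Within the genes, Col4a2 and Col4a3 had 1 proliferating peak each and Col4a4 had 2 differentiating peaks. The short-chain network collagen genes Col8a1, Col8a2 and Col10a1 had no promoter peak and no gene-body peak in either list.

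The fibrillar collagen genes of connective tissue, Col1a1, Col1a2 and Col3a1, had no promoter peak. Col1a2 had no peak in the gene. Col1a1 had a differentiating peak of 3.83 (−log10 q 3.00) from 1541 bp downstream of its start and a proliferating one of 3.00 (1.51) from 8603 bp downstream. Col3a1 had a differentiating peak alone, of 2.94 (1.47), from 1571 bp downstream. When the start of every transcript was counted, Col1a1 had a promoter peak in both lists, so its use as a contrast holds for the annotated gene start alone.

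Because several of these peaks began just past the promoter region, peaks from 101 to 3000 bp downstream of the TSS were counted as well. They were found in 15 members in the proliferating list, beside 25.8% of all genes, in 17 in the differentiating list, beside 29.7%, in 21 in either list, beside 35.9%, and in 11 in both, beside 19.6%. Without Col4a3bp there were 14, 16, 20 and 10 of 81. For all 82 members, in the same order, the shares were 18.3%, 20.7%, 25.6% and 13.4%, below those of all genes. Their intervals (10.6 to 28.4, 12.6 to 31.1, 16.6 to 36.4 and 6.89 to 22.7) each covered the share of all genes. Of the 11 fibrillar collagen genes, 1 had such a peak in proliferating cells (Col2a1) and 6 in differentiating cells (Col1a1, Col2a1, Col3a1, Col5a2, Col11a1 and Col11a2). With 1 library per state this was a count and no test.

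The type IX collagen genes Col9a1, Col9a2 and Col9a3, whose chains form 1 trimer on the surface of fibrils, each had peaks at the same place in both states. Col9a2 had a peak of 3.24 (1.63) in proliferating and 4.53 (6.94) in differentiating cells over exon 2, of which 650 bp were shared. Col9a3 had peaks of 3.46 (3.05) and 2.73 (1.69) that shared 578 bp downstream of its start. Col9a1 had 4 gene-body peaks in each list and 3 of them overlapped between the lists, the strongest with a fold enrichment of 4.21 in proliferating and 3.05 in differentiating cells. None of the 3 had a promoter peak at the annotated gene start. With every transcript start counted, Col9a3 had one in both lists. All 3 genes belong to the 9 collagen genes of the class that decorates fibrils (FACIT, fibril-associated collagens with interrupted triple helices). All 9 had a gene-body peak in both lists, beside 32.9% of all protein-coding genes, a comparison not matched for length. Among all protein-coding genes of 100 kb or longer, 78.2% and 77.2% had a gene-body peak in the proliferating and differentiating lists. Of the 9, Col12a1 and Col14a1 had no gene-body peak that overlapped between the lists.

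In the gene body, from the start to the end of the gene, 56 members had a peak in proliferating cells (68.3%, interval 57.1 to 78.1), beside 41.9% of all protein-coding genes. In differentiating cells 58 had one (70.7%, 59.6 to 80.3), beside 43.5%. In either list 68 had one, beside 52.5%, and 46 in both, beside 32.9%. Without Col4a3bp these were 55, 57, 67 and 45 of 81.

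The members are long genes, with a median length of 90.0 kb against 17.4 kb for all protein-coding genes. Per length the values were close: the members held 1.62 peaks per 100 kb of gene in each list, and all genes 1.65 and 1.70. Among genes of 100 kb or longer, 69.2% of the 39 members had a peak in each list, beside 78.2% and 77.2% of all genes of that length. From 30 to under 100 kb it was 66.7% and 70.4% of 27 members, beside 58.3% and 59.6%. Under 30 kb, 68.8% and 75% of 16 members had one, beside 29.6% and 31.8%, but the members in this class are long for it, with a median of 20.02 kb against 8.89 kb.

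Peak density along the members also went with the chromosome. The 24 members on chromosomes 1, 10 and 15 held 2.93 and 2.79 peaks per 100 kb (all genes there 2.95 and 3.10), and the 58 on the other chromosomes 1.01 and 1.08 (1.39 and 1.43). By family, the laminin genes held 2.96 and 2.11 peaks per 100 kb and the integrin beta genes 3.08 and 2.69, whereas the integrin alpha genes held 1.36 and 1.49 and the collagen genes 1.16 and 1.42. The 5 members with the most peaks over both lists, Lama2, Col18a1, Lama4, Lamb3 and Lamc1, all lay on chromosomes 1 or 10, and the part of the chromosome in their counts was not tested.

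Each list had 148 gene-body peaks in the members. In proliferating cells 33 of them (22.3%) overlapped a differentiating peak, and in differentiating cells 35 (23.6%) overlapped a proliferating one, beside 37.6% and 36.8% of the gene-body peaks of all genes. This overlap was lowest in the class of longest genes. Over all genes it fell with length, whereas in the members it was highest from 30 to under 100 kb. For genes of 100 kb or longer it was 15.4% and 16.2% in the members and 24.5% and 24.3% in all genes, from 30 to under 100 kb 39.4% and 44.8% beside 41.6% and 40.7%, and under 30 kb 36.4% and 35.7% beside 56.8% and 54.6%. In the middle class the members were thus not lower in both lists. Of the 46 members with a gene-body peak in both lists, 25 (54.3%) had peaks that shared a base, beside 76.9% of all such genes, a comparison not matched for length. A member marked in both states was thus often marked at different places. The median fold enrichment of the member peaks was 3.31 and 3.12, close to that of the whole lists. Of the gene-body peaks, 102 and 97 lay in introns, 27 and 24 of them in intron 1, and 40 and 48 touched an exon of the transcript with the longest coding sequence.

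Lama2 had the most gene-body peaks of any member, 19 in proliferating and 8 in differentiating cells, over 639723 bp of chromosome 10. None of the 19 shared a base with any of the 8. Their fold enrichment ran from 3.00 to 4.26 in the proliferating list and from 2.73 to 3.62 in the differentiating list, and no −log10 q passed 3.44 in the first or 2.86 in the second. Lama4 on the same chromosome had 8 peaks in each list, and the peak over its start was the 1 place marked in both. Lamc1 had 7 in each list, of which those over the start and 2 in intron 1 were shared.

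**Figure D3:**
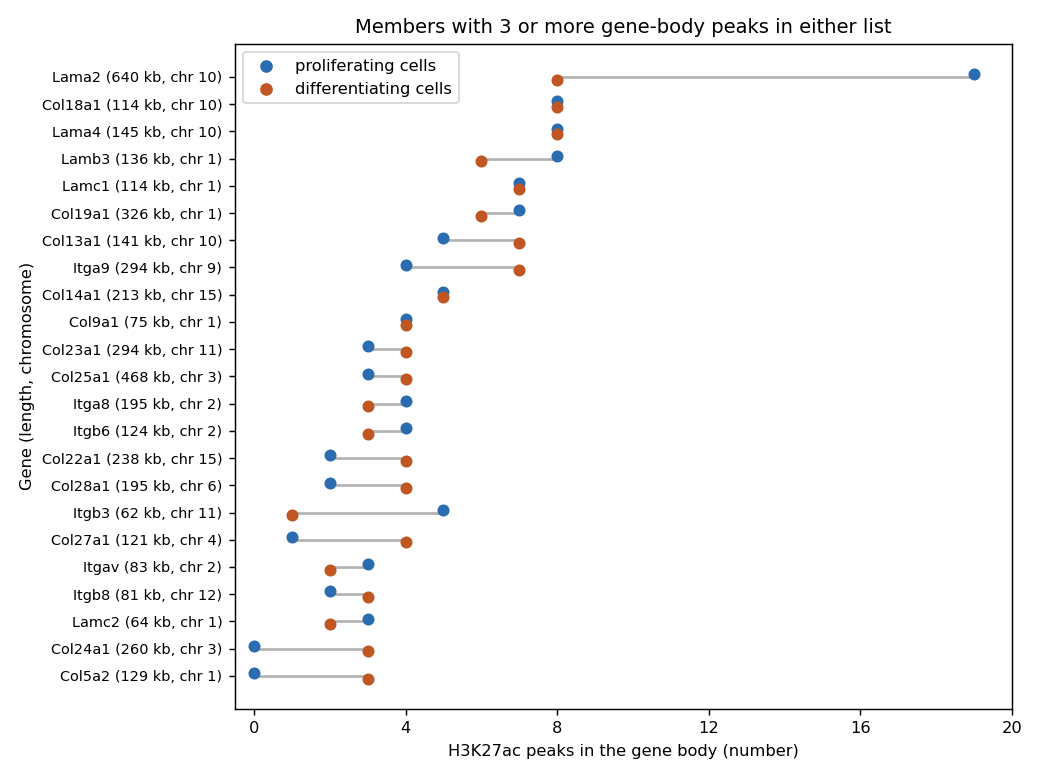
Number of H3K27ac gene-body peaks (x axis) of each member with 3 or more in either list (rows, with gene length and chromosome), in proliferating (blue) and differentiating (orange) cells, joined by a grey line. Lama2 held 19 and 8 peaks, and Itgb3 5 and 1.

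Among the collagens the most gene-body peaks were found in Col18a1, which encodes the precursor of endostatin (8 and 8), in Col19a1 (7 and 6) and in Col13a1 (5 and 7). The GENCODE start of Col18a1 lies 52602 bp upstream of that of the transcript with the longest coding sequence, and the promoter region of the latter held a peak in both lists, with a fold enrichment of 2.82 and 3.29. At this inner start Col18a1 would count as an eighth member marked in both states. None of the 5 and 7 peaks of Col13a1 overlapped. Among the integrin alpha genes Itga9 had 4 and 7 peaks, with 1 place shared in intron 18 (2.99 and 3.48), Itga8 had 4 and 3, and Itgav 3 and 2. Among the integrin beta genes Itgb6 had 4 and 3 with none shared, Itgb3 had 5 and 1, and Itgb8 2 and 3. The 5 proliferating peaks of Itgb3 began 1770 bp downstream of the start, and the last of them met the differentiating peak, of 3.95 (3.63), over 121 bp. Itgb5 had no proliferating peak and 1 differentiating peak of 3.11 (1.62) in intron 13.

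The member peaks of highest −log10 q in each list did not lie at the annotated start of the member itself. In Lama1 a peak in intron 5, from 43981 bp downstream of the TSS, had a fold enrichment of 5.60 (−log10 q 7.38) in proliferating and 7.29 (15.9) in differentiating cells, above 98.5% and 99.5% of the peaks of the lists by −log10 q. Annotated repeats made up 66.5% and 63.4% of its bases in the soft-masked genome, and their part in the enrichment was not tested.

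Lamb3 held the other strongest peaks, and both lay over other genes. The GENCODE span of Lamb3 covers the genes Hsd11b1 and G0s2, which are read in the opposite direction. A peak from 64601 bp downstream of the Lamb3 start, of 5.16 (11.9) in proliferating and 4.68 (13.2) in differentiating cells, lay over G0s2, a gene for an inhibitor of fat breakdown, and reached its promoter region. A peak from 19110 bp, of 6.26 (10.1) and 3.84 (4.81), lay within Hsd11b1, the gene of an enzyme that activates glucocorticoids. Of the remaining Lamb3 peaks, a pair in intron 7 shared 699 bp, with a fold enrichment of 3.51 and 3.18.

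**Figure D4:**
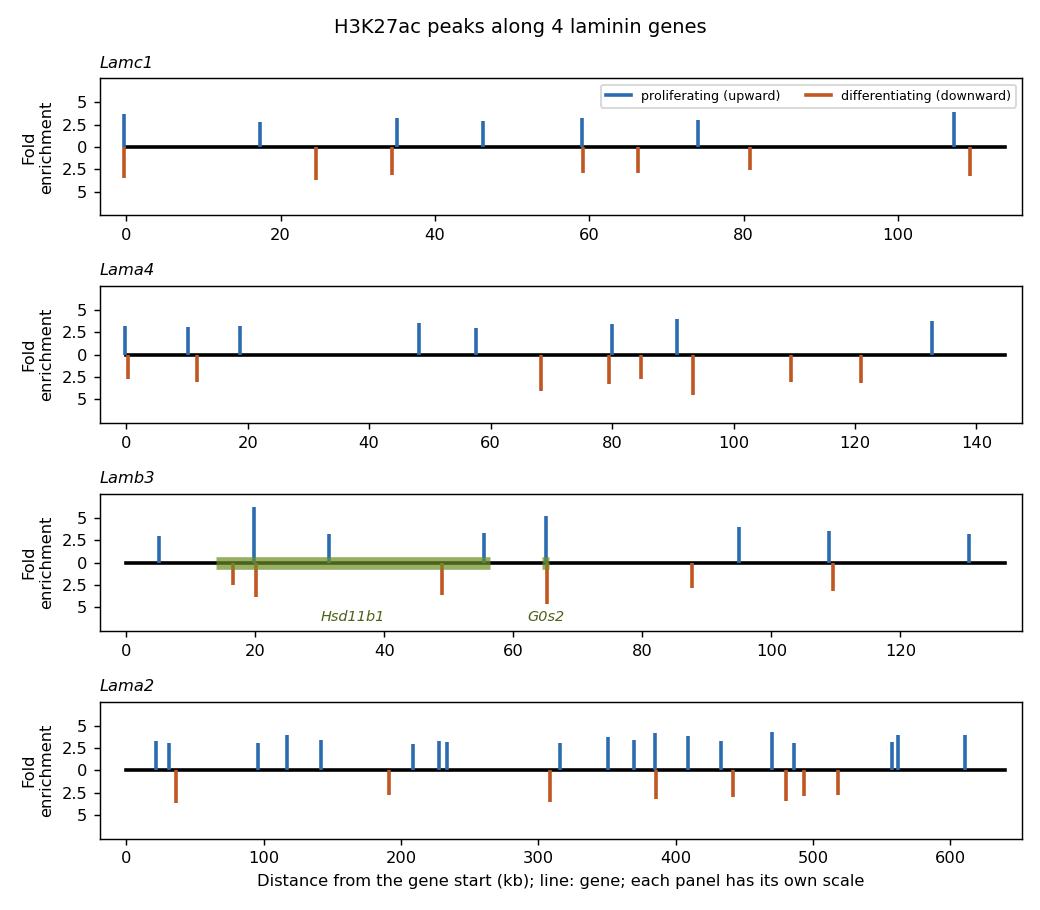
H3K27ac peaks along Lamc1, Lama4, Lamb3 and Lama2 by distance from the gene start in kb (x axis, one scale per panel), drawn at the peak middle with the fold enrichment as height, proliferating upward in blue and differentiating downward in orange; green bars mark Hsd11b1 and G0s2 within Lamb3. The tallest bars of Lamb3 stand within Hsd11b1 and G0s2, and the 19 and 8 peaks of Lama2 are spread along the gene.

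The other members among the strongest by fold enrichment or −log10 q in proliferating cells were Col6a6, with a peak of 4.76 (4.61) in intron 1, Itga2b, with 4.82 (4.59) at exon 28, Itgad, Col9a1 and Col18a1, with 4.53 (4.32) from 4715 bp downstream of its start. In differentiating cells they were Col9a2, Col20a1, Lama4, with a −log10 q of up to 4.74, and Itgb3. The peak of Col6a6 had none of the other list in the same gene. That of Itga2b shared no base with a differentiating peak, but one of 3.29 (1.96) at exon 27 lay next to it. A peak near the end of Lamb2, of 3.83 (2.72) and 3.43 (2.43), lay over Usp19 and its promoter region. The peaks of Col4a3bp, of 4.10 (3.00) and 3.35 (2.05), lay in the promoter region of Polk. Of all member peaks in promoter regions or gene bodies, 3 of 151 in the proliferating list and 4 of 150 in the differentiating list had a −log10 q of 5 or more. Peaks at Lama1, Lamb3, Col9a2 and Col20a1 made up these 7.

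The genes that act with the members were read from lists of known partners. Of 20 genes for the adhesion proteins inside the cell, 9 had a promoter peak in each list, 12 in either and 6 in both, beside 23.7% and 27.7% of all genes in the proliferating and differentiating lists, 33.8% in either and 17.6% in both. These 6 were Ptk2 (focal adhesion kinase), Tln1 (talin, which switches integrins on), Src, Bcar1, Zyx and Itgb1bp1. The promoter peak of Tln1 had a fold enrichment of 4.75 (−log10 q 5.41) in proliferating and 3.57 (3.07) in differentiating cells, and that of Zyx 4.06 (3.27) and 3.24 (2.36). Vcl, Pxn and Tln2 had none.

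Of 16 genes that process collagen chains, 5 had a promoter peak in proliferating and 6 in differentiating cells, beside 23.7% and 27.7% of all genes. The same 5 had one in both, beside 17.6% of all genes. They were P4ha1 and P4hb, the subunit genes of prolyl hydroxylase, Plod1 and Plod3, lysyl hydroxylase genes, and Serpinh1, the gene of the collagen chaperone of the endoplasmic reticulum. Their fold enrichment ran from 2.91 (Serpinh1) to 3.97 (P4hb) in proliferating cells and from 2.71 (P4hb) to 3.51 (Plod1) in differentiating cells. The differentiating peak of P4hb had a −log10 q of 1.17, above only 1.66% of that list. Its q was above 0.05, so under that cutoff P4hb would not count in both lists. The cross-linking enzyme genes Lox, Loxl1 and Loxl2 had no promoter peak. Of 10 genes for basement membrane proteins and laminin receptors other than integrins, 3 had a promoter peak in each list, close to the shares of all genes, and 2 in both, Agrn (4.24 and 4.196) and Utrn (3.60 and 3.53). Dag1, the dystroglycan gene, had one in proliferating cells alone, of 4.33 (3.78). Of 10 genes for other integrin ligands, 1 had a promoter peak in proliferating and 4 in differentiating cells, beside 23.7% and 27.7% of all genes. Tnr, the tenascin gene known from oligodendroglia, had one in both, of 4.15 (4.33) and 3.21 (4.51). Fn1, Vtn and Thbs2 had one in differentiating cells, of 2.89 (1.28), 4.43 (4.54) and 2.89 (1.28). By −log10 q the peaks of Fn1 and Thbs2 stood above only 5.24% of that list. Their q was above 0.05, so under that cutoff these peaks would not be counted.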

How the data were processed

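The authors mapped the H3K27ac reads of each state to GRCm38/mm10 with Bowtie2 2.1.0, kept uniquely mapped reads and removed duplicates with SAMtools. They called broad peaks with MACS2 2.0.10 and removed blacklisted regions with bedtools. The methods of the study state a q cutoff of 0.05 for these peaks, but the deposited lists also hold peaks of higher q. All listed peaks were used here. In the deposited lists every peak has its position and, in a text field without a header, 3 numbers. They were taken to be the fold enrichment (a ratio), then −log10 of p, then −log10 of q, the order of the MACS2 broad peak format. They hold no counts, so the depth behind a peak is unknown, and no input library is named in the sources used here. From these lists, peaks were intersected with the promoter region and gene body of each GENCODE M21 protein-coding gene (any shared base), using Python 3.11.15, numpy 2.4.6, scipy 1.17.1, pysam 0.24.0 and matplotlib 3.10.9. Shares carry exact (Clopper-Pearson) 95% intervals. No test was run, since each state had 1 library.

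The members and lists were chosen with earlier results of these data known. Named with values were the members with a promoter peak, the 3 members per family with the most gene-body peaks, those with the 5 strongest peaks per list, integrins of leukocytes and chains known from the oligodendrocyte lineage or connective tissue, the type IV pairs, Col4a3bp and the partner genes with a promoter peak in both lists. Any other gene was picked with its values in view. The sequences at 2 places are not reported here. The overlap step was tested on simulated data with 200 planted promoter peaks, of which 100% were recovered. The peaks were planted inside the same promoter regions that were then searched. The check therefore covers the overlap search alone, and not the choice of start or region. Alternatives were another promoter width, every transcript start, the start of the transcript with the longest coding sequence, stricter peak thresholds, a larger overlap and the removal of chromosomes 1, 10 and 15.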

Additional observations from a re-analysis of the deposited data

How the results depend on the processing

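No paired analysis was possible because each state had 1 library and no test was run. Of 80 alternative values, 54 stayed within 1.5 times the reported count and 26 did not. The share of members with a promoter peak was below that of all protein-coding genes in all 52 promoter values, the reported ones included. With the start of every transcript the gap was smallest in either list, where 40.2% of members stood beside 42.1% of all genes. The share with a gene-body peak was above that of all genes in 33 of 36 values, and the 3 exceptions used a −log10 q of at least 5.

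Promoter counts are given in the order proliferating, differentiating, either and both. With a −log10 q of at least 5 they were 0, 0, 0 and 0, beside 3.27%, 4.25%, 5.81% and 1.70% of all genes. No peak that strong thus reached the promoter region of a member. The differentiating peak of Col20a1 (−log10 q 5.98) began 324 bp downstream of the TSS, just outside that region. With the start of every transcript they were 24, 23, 33 and 14, and with 3000 bp on both sides of the TSS, chosen after seeing the data, 18, 19, 25 and 12. With at least 0.5 of the peak inside the region they fell to 7 in proliferating cells, 6 in differentiating cells and 3 in both. The shares of all genes were then 13.9%, 15.6% and 7.65%. With fold enrichment at or above the median of the list they fell to 5 in differentiating cells and 8 in either, beside 20.4% and 26.3% of all genes. With the transcript of the longest coding sequence, also chosen after seeing the data, they were 12, 11, 15 and 8, Col18a1 being the gene added.

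Gene-body counts, in the same order, were 2, 4, 4 and 2 with a −log10 q of at least 5 (2.44%, 4.88%, 4.88% and 2.44%). The shares of all genes were then 4.62%, 6.07%, 8.28% and 2.41%. With fold enrichment at or above the median the counts were 38, 46, 58 and 26, beside 30.4%, 32.5%, 42.2% and 20.6% of all genes. Without chromosomes 1, 10 and 15 they were 37, 37, 45 and 29 of 58 members, where fewer genes were counted. These were 63.8%, 63.8%, 77.6% and 50%, beside 38.3%, 39.9%, 48.8% and 29.4% of all genes there. The weakest peaks had a q of 0.0995 and 0.0983. With a q of at most 0.05 the promoter counts stayed at 11, 10, 14 and 7, and the gene-body counts were 56, 57, 68 and 45. Depth per peak is unknown, so a place without a peak was not shown to lack the mark.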
